A study of Mus musculus with 4 samples.

Results

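Transcripts of Angptl4, Pdk4, Txnip, Acer2, Rgcc and Cpt1a, most of them known from fasting or from lipid metabolism, were followed across spatial transcriptomes of mouse lung. They are 6 of the 32285 genes in each count table, and all 6 passed the filter on low counts in every comparison. The genes were chosen by their levels in these same sections and along Cldn5, Cdh5 and Myl7, with results for them already known, so their differences between sections, between groups and along endothelial or muscle markers are given as a description, without p-values. Cryosections of upper pulmonary branches came from C57BL/6J mice on Visium slides, on which each spot collects polyadenylated RNA from several neighboring cells and each captured molecule is counted once as a unique molecular identifier (UMI). The vaped group (V) had breathed Peach Ice flavored e-vapor in whole-body chambers on 5 days of each week, 4 h a day, over 9 wk from an age of 6 to 8 wk, and the non-vaped group (NV) had not. Each group held 1 male and 1 female section. The methods name air-exposed controls for immunoblots, and whether the NV sections came from such mice is not given in the sources used here. Sections differed in size and depth, from 473 spots and 6957392 UMIs (NV female) to 2053 spots and 34308556 UMIs (V female), with 842 spots in the NV male and 1565 in the V male. Spot barcodes come from a common set of slide positions, and 277 to 1167 of them were shared by any pair of sections.

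The V male section stood apart in its tissue. Summed markers of cardiac muscle reached 23.2 UMIs in 1000000 UMIs (CPM) there against 7714 to 14098 CPM in the other sections, adipocyte markers 18.9 against 789 to 7056 CPM, and club and ciliated cell markers 262 against 2198 to 12722 CPM, with Foxj1, Ccdc113 and Dnah5 at 0 UMIs. Endothelial markers were at 5501 CPM in the V male against 2873 to 3449 CPM, and alveolar type 1 markers at 6101 against 2581 to 3226 CPM. All but 1 of its 1565 spots classed as parenchyma by alveolar and capillary markers, whereas the other sections held 125 to 433 spots of airway, muscle or fat. Levels are given for whole sections and for parenchyma spots, and comparisons with and without the V male. The tissue difference remained in parenchyma spots, where cardiac markers summed to 23.2 CPM in the V male against 3910 to 6249 CPM in the other sections, adipocyte markers to 18.9 against 457 to 2762 CPM, and club and ciliated markers to 262 against 1211 to 11209 CPM. The V female also differed in its fat. The adipocyte markers Ucp1 and Elovl3 were at 859 and 58.0 CPM there, against at most 1.01 and 0.862 CPM in any other section. Adipoq, Plin1, Cidec and Cfd were higher in the NV female than in the V female. The part of these tissue differences in the results was not tested.

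During fasting, falling insulin and rising fatty acids and glucocorticoids switch tissues from glucose to fat through the nuclear receptors of the PPAR family, FoxO factors and the glucocorticoid receptor, and Angptl4, Pdk4 and Cpt1a are classical targets of this switch. Txnip is driven by glucose through the Mondo and ChREBP factors and restrains glucose uptake. In the lung, where capillaries make up a large share of the cells, several of these genes are also expressed by the endothelium, and heart muscle, which enters the lung along the pulmonary veins, is a well known site of Pdk4.

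In the GRCm38 annotation, Angptl4 lies on the minus strand of chromosome 17 (33773750 to 33781830), Pdk4 on the minus strand of chromosome 6 (5483351 to 5496309) and Txnip on the plus strand of chromosome 3 (96557957 to 96561883). Acer2 lies on the plus strand of chromosome 4 (86874396 to 86934822), Rgcc on the minus strand of chromosome 14 (79288756 to 79301645) and Cpt1a on the plus strand of chromosome 19 (3322334 to 3385733). All are protein-coding genes. RefSeq promoter windows (GRCm38.p6) were at hand for 5 of the 6 genes, the exception being Angptl4. Positions are counted from the RefSeq start, which matches the gene span above for Txnip only. For Pdk4, Acer2, Rgcc and Cpt1a it lies inside the span, so the Pdk4 sequence shown overlaps the end of its span. The 250 bases before the start are shown for Txnip, a gene that was highest in the V male, and for Pdk4, the gene that was lowest there, each 5′ to 3′ on the strand of the gene, at chr3:96557707-96557956 (plus strand) and chr6:5496279-5496528 (minus strand). Capitals mark the FoxO core GTAAACA, the CCAAT box (also read as ATTGG on the opposite strand) and a pair of CACGAG repeats.
Txnip: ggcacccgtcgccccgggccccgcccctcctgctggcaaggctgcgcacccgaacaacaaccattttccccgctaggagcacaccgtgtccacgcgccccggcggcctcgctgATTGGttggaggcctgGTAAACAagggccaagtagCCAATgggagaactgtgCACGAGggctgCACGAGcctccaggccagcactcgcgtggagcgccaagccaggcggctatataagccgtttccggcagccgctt
Pdk4: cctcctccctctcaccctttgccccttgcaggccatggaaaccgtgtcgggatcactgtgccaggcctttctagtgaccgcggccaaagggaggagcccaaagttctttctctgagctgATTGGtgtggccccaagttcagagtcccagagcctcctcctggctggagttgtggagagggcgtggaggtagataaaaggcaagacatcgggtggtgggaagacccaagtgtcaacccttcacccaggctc

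In the Txnip window GTAAACA began at base -121 from the start, CCAAT boxes at -137 and -102, and the CACGAG repeats, separated by 5 bases, at -85. Over 27025 promoter windows of 300 bases and both strands, GTAAACA was found in 3.55%, CCAAT in 37.9% and the spaced CACGAG pair in 1, that of Txnip. The CACGAG pair, the E-box-like layout of a carbohydrate response element, was searched after the Txnip sequence had been read. Pdk4 held a CCAAT box at -131 and Cpt1a at -19. Cpt1a also held AGGTCA, the core of nuclear receptor sites, at -94 on the opposite strand, a motif present in 16.0% of windows. Acer2 and Rgcc held none of these letters, and CACGTG, the plain E-box (7.24% of windows), was in none of the 5 windows. A match is a description of the letters in a window and says nothing about binding.

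Angptl4, Txnip, Acer2 and Rgcc were highest in the V male and next highest in the NV female. Angptl4, a secreted inhibitor of lipoprotein lipase, reached 198 CPM in the V male, 50.0 in the V female, 31.2 in the NV male and 66.1 in the NV female. The V male thus lay above every other section, while the V female lay between both NV sections. In parenchyma spots the V female value fell to 33.6 CPM, close to the 32.6 CPM of the NV male, whereas the NV female held 69.5 CPM. Counting error (exact 95% Poisson intervals, which cover counting error only) was small against these gaps, as 293 to 2356 Angptl4 UMIs stood behind each whole-section value. More cells of a type and more RNA per cell cannot be told apart in spots of tissue.

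**Figure D1:**
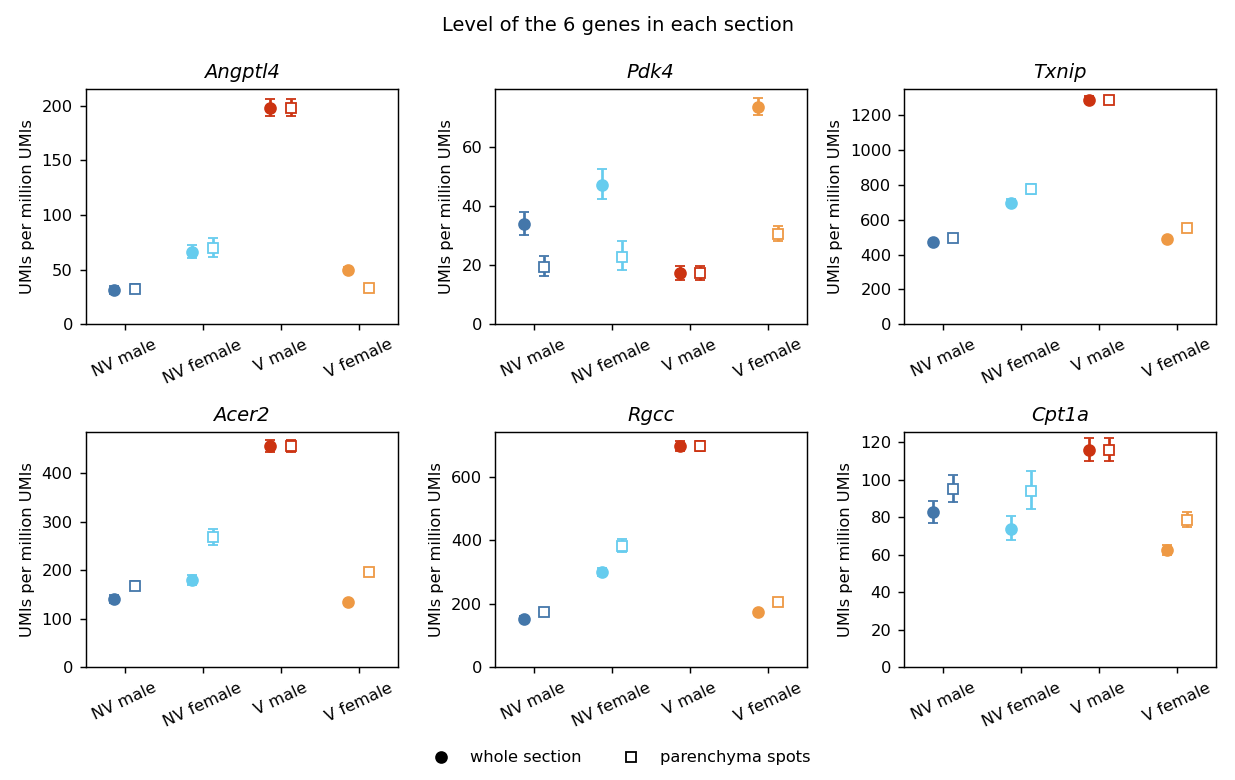
Level of each gene in CPM (vertical axis, from 0) in the 4 sections, over whole sections (filled circles) and parenchyma spots (open squares), with exact 95% Poisson intervals. For Angptl4, Txnip, Acer2, Rgcc and Cpt1a the V male (198, 1289, 456, 697 and 116 CPM) lies above the other 3 sections, and for Pdk4 (17.2 CPM) it lies lowest.

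Txnip, an alpha-arrestin that binds thioredoxin and limits glucose uptake, was at 1289 CPM in the V male, 487 in the V female, 470.0 in the NV male and 699 in the NV female. The V female and NV male were close to each other and the V male stood 1.59-fold or more above the highest other section in every class of spots by endothelial markers. Acer2, an alkaline ceramidase of the Golgi that releases sphingosine, was at 456 CPM in the V male, 136 in the V female, 141 in the NV male and 180.0 in the NV female. Restriction to parenchyma spots raised the 3 lower values to 196, 169 and 269 CPM and left the V male highest. Rgcc, a regulator of the cell cycle that is induced by complement, was at 697 CPM in the V male, 175 in the V female, 152 in the NV male and 301 in the NV female. As with Angptl4, the spread of Rgcc between the NV sections was wide, and the V female lay inside it.

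Cpt1a, the liver-type enzyme that loads long-chain fatty acids onto carnitine at the outer mitochondrial membrane, varied least, with 116 CPM in the V male, 62.5 in the V female, 82.7 in the NV male and 74.0 in the NV female. The V sections were the highest and the lowest of the 4, and in parenchyma spots they still enclosed the NV values of 95.0 and 94.2 CPM (V male 116, V female 78.7 CPM). Pdk4, the kinase that shuts off pyruvate dehydrogenase, had the opposite order: 17.2 CPM in the V male, 73.6 in the V female, 33.9 in the NV male and 47.1 in the NV female. The V male was lowest and the V female highest. Within parenchyma spots Pdk4 was at 17.2, 30.5, 19.4 and 22.8 CPM in the same order of sections, and outside them at 125 in the V female, 81.9 in the NV male and 75.9 in the NV female. Cardiac muscle and adipocyte markers also stood higher in those spots. In the V female, adipocyte markers summed to 11001 CPM outside the parenchyma and 2762 CPM inside it.

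Shares of spots with at least 1 UMI were compared at equal depth. After each spot was thinned to 3000 UMIs, which left out shallower spots and kept 1363, 1829, 731 and 421 spots in the V male, V female, NV male and NV female, Angptl4 was seen in 44.7% of V male spots (exact 95% binomial interval 42.0 to 47.4%), 11.2% of V female, 9.44% of NV male and 19.95% of NV female spots. Without thinning the shares were 67.7, 36.3, 25.9 and 47.4%. Txnip was detected nearly everywhere in the V male (97.9%), and in 78.5, 74.8 and 85.3% of spots of the V female, NV male and NV female. For Acer2 the shares were 74.7, 40.9, 33.2 and 43.7%, and for Rgcc 85.4, 39.7, 35.3 and 59.1%. These 4 genes kept the order of V male, NV female, V female and NV male at 1000, 3000 and 5000 UMIs. Cpt1a was seen in 29.5, 18.7, 21.8 and 23.3% of spots, and Pdk4 in 4.77, 12.4, 10.1 and 7.60%, with the V male highest for Cpt1a and lowest for Pdk4 at each thinned depth while the order of the other sections changed. Shares above 0 can include RNA that spread from neighboring spots, so they are shares of spots with a UMI and not of expressing cells.

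**Figure D2:**
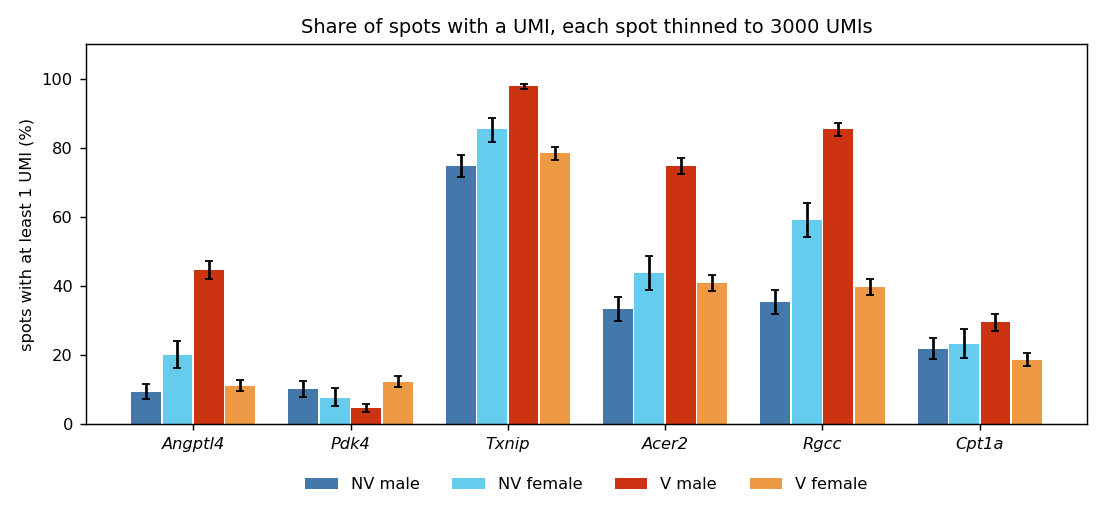
Percentage of spots with at least 1 UMI of each gene (bars from 0) after thinning each spot to 3000 UMIs, with exact 95% binomial intervals that cover counting error only. The V male bar is the highest for 5 genes (Angptl4 44.7%, Rgcc 85.4%) and the lowest for Pdk4 (4.77%).

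The spots with the highest Pdk4 level per UMI were less often parenchyma than all spots of their section, except in the V male, where all but 1 spot were parenchyma. Spots were ranked by the share of their UMIs from Pdk4, and the highest 10% were taken. In the V female, NV male and NV female, 43.9, 52.4 and 46.8% of these were parenchyma, against 78.9, 81.2 and 73.6% of all spots. Ranked by Acer2 in the same way, 91.7 to 98.5% of the highest 10% were parenchyma.

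To relate the genes to endothelium, spots of each section were ranked by their share of UMIs from Cldn5 and Cdh5, which encode a tight junction claudin and VE-cadherin, cut into 3 equal parts, and the highest (endothelial-rich) was set against the lowest (endothelial-poor). Acer2 was higher and Pdk4 lower in the rich spots of every section. Acer2 was at 496 CPM in rich and 439 CPM in poor spots of the V male, 216 against 75.2 in the V female, 184 against 77.3 in the NV male, and 279 against 84.7 in the NV female, a ratio of 1.13 to 3.30. The V male had the smallest step, and its poor spots lay above the rich spots of all other sections. The ranking markers also stepped least there. Cldn5 was 2.47-fold and Cdh5 2.54-fold higher in rich spots of the V male, against 5.09- to 6.16-fold and 4.12- to 4.72-fold elsewhere. Pdk4 was at 12.7 and 18.5 CPM in rich and poor spots of the V male, 25.5 against 114 in the V female, 18.4 against 65.2 in the NV male, and 22.3 against 70.8 in the NV female. Only in the V male did its poor spots hold less than the rich spots of another section.

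In edgeR's fit with the section as a block, the log2 fold change of rich over poor spots was 0.87 ± 0.20 (SE, n = 4 sections) for Acer2, -1.97 ± 0.28 for Pdk4, -0.53 ± 0.22 for Angptl4, 0.30 ± 0.12 for Cpt1a, 0.23 ± 0.15 for Rgcc and 0.061 ± 0.14 for Txnip. Since the genes were chosen by this relation, the values are a description. Across all 12518 genes, 14% passed the threshold (Benjamini-Hochberg adjusted p below 0.05 with a log2 change larger than 0.25 either way), 3.51% higher and 10.4% lower in rich spots (440 and 1307 genes, against 2393 and 950 with scaling to total UMIs). Without the V male (4946 genes called), the values were -0.76 for Angptl4, 0.34 for Rgcc and 0.40 for Cpt1a. Without the V female Angptl4 had -0.23. Acer2 had 0.77 without the V female (157 genes called), 0.88 without the NV male (194 genes called), 0.72 without the NV female (283 genes called) and 0.40 with spots thinned to 3000 UMIs.

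On levels scaled to total UMIs the median of all tested genes was itself 0.29 higher (log2) in rich spots. On that scale the mean log2 difference was 0.35 for Txnip, 0.53 for Rgcc, 0.59 for Cpt1a, 1.17 for Acer2, -0.23 for Angptl4 and -1.55 for Pdk4. Endothelial-poor spots were also the spots of other tissue. Cardiac muscle markers had a median log2 fold change of -2.41 and adipocyte markers -2.13, with 8 of 8 and 4 of 4 tested markers lower in rich spots, while 4 of 6 alveolar type 1 markers were higher. Within parenchyma spots alone the steps shrank but kept their direction for Acer2 (1.13- to 1.34-fold, higher in 4 of 4 sections) and Pdk4 (0.574- to 0.785-fold, lower in 4 of 4) (log2 fold change 0.28 and -0.67 in the fit, where 446 genes were called). Txnip was 1.06- to 1.13-fold higher in 4 of 4 sections, Angptl4 was lower in 4 of 4 (0.753- to 0.985-fold), and Rgcc and Cpt1a were higher in 3 of 4.

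**Figure D3:**
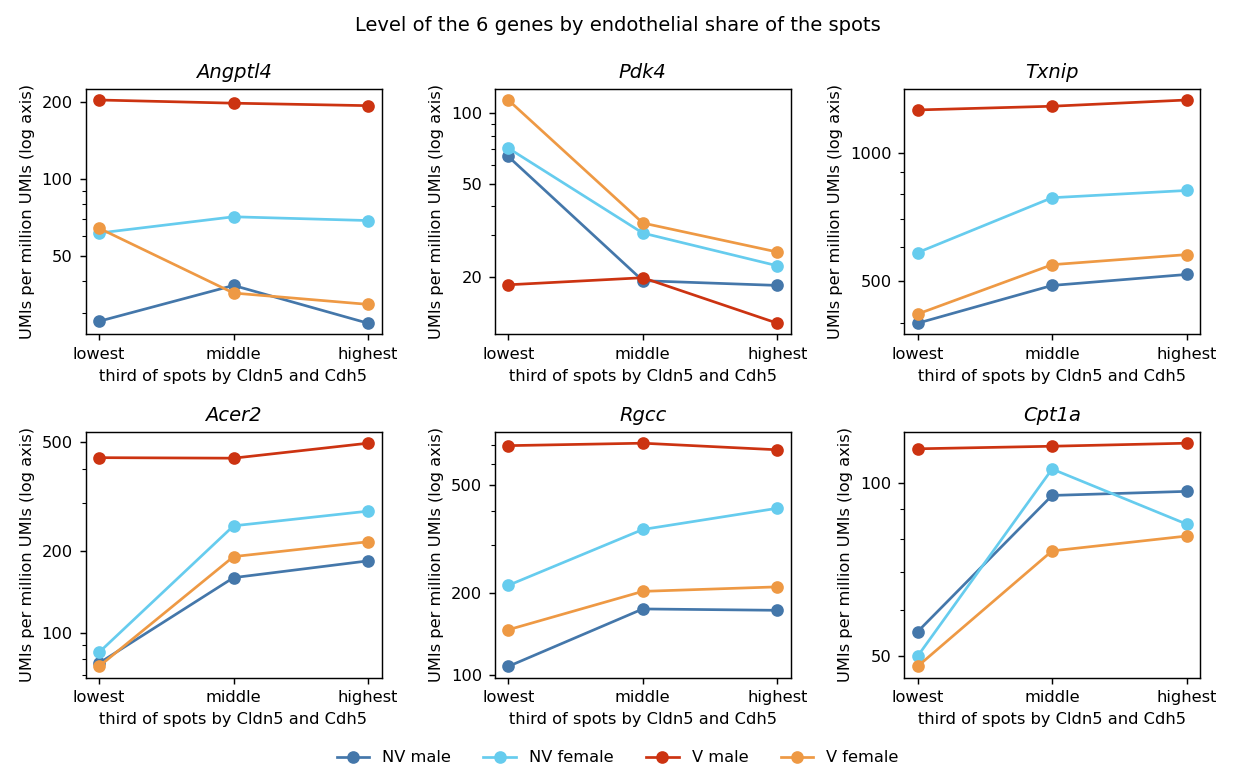
Level in CPM (log axis) of each gene in the 3 equal parts of the spots with the lowest, middle and highest share of Cldn5 and Cdh5, with 1 line per section. The V male line lies above all others in every part for 5 genes (for Angptl4, 194 to 204 CPM), and Acer2 rises and Pdk4 falls from the lowest to the highest part in the 3 other sections.

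For Angptl4, Txnip, Acer2, Rgcc and Cpt1a the V male was the highest section in every endothelial class of spots. Set against the highest of the 3 other sections within the same class, whole or parenchyma, its level was 2.78- to 3.17-fold for Angptl4, 1.59- to 2.16-fold for Txnip, 1.69- to 5.18-fold for Acer2, 1.64- to 3.27-fold for Rgcc and 1.09- to 2.09-fold for Cpt1a. The parts were cut within each section, so the classes were not matched. Endothelial-poor spots of whole sections held 603 CPM of Cldn5 and Cdh5 in the V male, against 241 to 274 CPM elsewhere. The highest ratio of each gene came from these spots. In endothelial-poor parenchyma spots the ratio was 1.83 for Acer2, 1.99 for Rgcc and 1.09 for Cpt1a. For Pdk4 the V male lay below all 3 sections in rich and in poor spots, and in the middle class its 19.8 CPM was just above the lowest other value of 19.2 CPM. Expressed per 100 UMIs of Cldn5 and Cdh5 in parenchyma spots, Angptl4 was at 18.9 in the V male, 3.73 in the V female, 3.67 in the NV male and 7.07 in the NV female, and Rgcc at 66.4, 22.7, 19.6 and 38.9.

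Muscle was read from Myl7, the atrial myosin light chain. The V male was left out, since 1.53% of its spots held a Myl7 UMI, against 94.7 to 98.3% in the other sections. Pdk4 was higher in Myl7-rich than in Myl7-poor spots of both NV sections and not of the V female. It was at 65.4 CPM in Myl7-rich and 20.6 CPM in Myl7-poor spots of the NV male, 77.3 and 22.8 in the NV female, and 78.2 and 83.4 in the V female, where the middle part held 60.8 CPM. Across single spots the Spearman rho of Pdk4 with Myl7 was 0.20 in the V female, 0.18 in the NV male and 0.26 in the NV female, and with spots thinned to 3000 UMIs 0.088, 0.19 and 0.16. Angptl4, Txnip, Acer2, Rgcc and Cpt1a were all lower in Myl7-rich spots of all 3 sections. On this total-UMI scale the median of all tested genes was itself -0.25 (log2). Acer2 held 105 against 147 in the V female, 78.8 against 168 in the NV male and 114 against 212 in the NV female. Rgcc held 137 against 207 CPM, 95.0 against 193 CPM and 199 against 379 CPM in the same order.

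edgeR gave a log2 fold change of Myl7-rich over Myl7-poor spots of -0.58 ± 0.12 (SE, n = 3 sections) for Rgcc, -0.55 ± 0.12 for Acer2, 1.14 ± 0.35 for Pdk4, -0.26 for Angptl4, -0.21 for Cpt1a and -0.068 for Txnip, again as a description. Of all 12521 genes, 10.6% passed the threshold, 7.85% higher and 2.72% lower (983 and 340 genes, against 828 and 1566 with scaling to total UMIs). With the V female left out (3401 genes called), Pdk4 had a log2 fold change of 2.06 and Cpt1a -0.38. Total-UMI levels of all tested genes had a median of -0.25 (log2) in this contrast, and the mean differences were -0.85 for Rgcc, -0.82 for Acer2, -0.50 for Cpt1a, -0.48 for Angptl4, -0.34 for Txnip and 1.11 for Pdk4. Angptl4 turned to 0.022 with spots thinned to 3000 UMIs and to 0.13 in parenchyma spots. Markers of alveolar type 1 cells (6 of 6) and endothelium (5 of 10) were lower in Myl7-rich spots, and 5 of 5 smooth muscle markers were higher. Within parenchyma spots Acer2 had -0.092 and Rgcc -0.21, with 248 genes called.

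**Figure D4:**
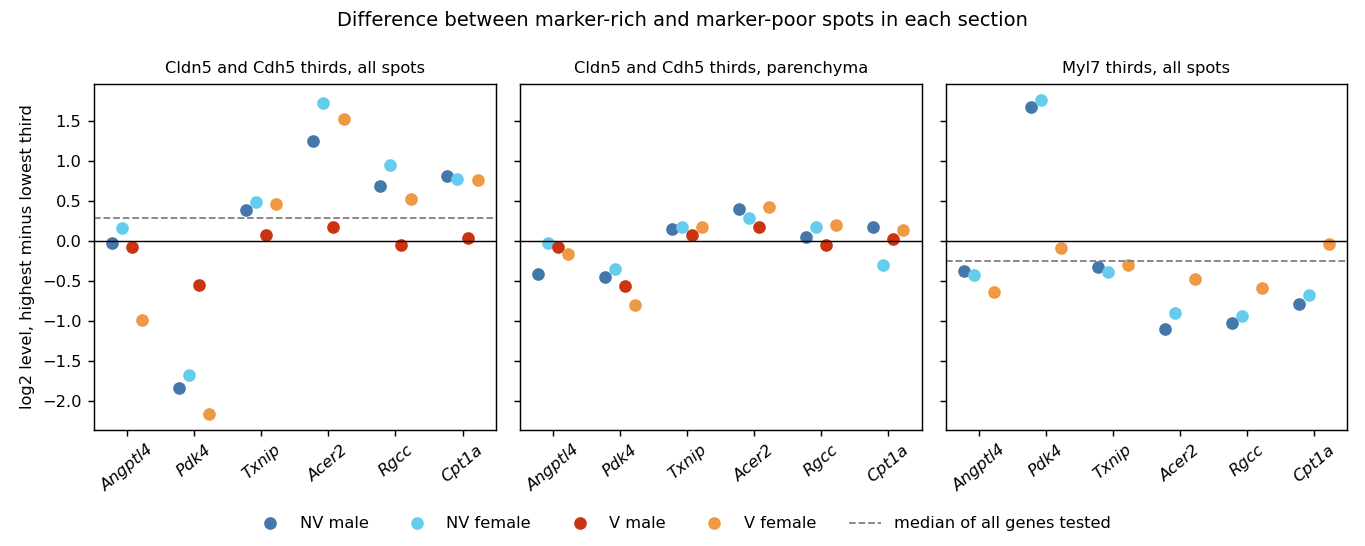
Log2 difference between the highest and lowest of 3 equal parts of the spots (vertical axis, total-UMI levels) for the 6 genes, 1 point per section, by endothelial markers over all spots (left), over parenchyma spots (middle) and by Myl7 (right, without the V male). Dashed lines mark the median of all tested genes (0.29 and -0.25). Acer2 lies above 0 and Pdk4 below 0 in every section at left and in the middle, and at right Pdk4 is high in both NV sections and near 0 in the V female.

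Between V and NV, the question of the study, the groups overlapped for each of the 6 genes. Over whole sections Angptl4 was at 124 ± 105 CPM in V and 48.7 ± 24.7 CPM in NV (mean ± SD, n = 2 each), Rgcc at 436 ± 369 and 227 ± 105 CPM, Acer2 at 296 ± 226 and 160 ± 27.6 CPM, and Txnip at 888 ± 567 and 585 ± 162 CPM. For Pdk4 the values were 45.4 ± 39.9 and 40.5 ± 9.38 CPM, and for Cpt1a 89.3 ± 37.9 and 78.3 ± 6.12 CPM. The overlap was seen over whole sections and over parenchyma spots, so that 0 of the 6 genes were separated. Among all tested genes both V sections lay above both NV sections for 12.6% over whole sections and 14.4% over parenchyma spots, and below them for 14.4 and 17.1%.

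The log2 fold change of V over NV from edgeR was 1.26 ± 0.73 (SE) for Angptl4, 0.85 ± 0.72 for Rgcc, 0.80 ± 0.57 for Acer2, 0.53 ± 0.51 for Txnip, 0.22 ± 0.79 for Pdk4 and 0.13 ± 0.28 for Cpt1a. edgeR called none of the 6 and 0 of 14570 genes (0%), with 248 at an unadjusted p under 0.05, 8 called by DESeq2 and 0 by limma. Over parenchyma spots the values were 1.19 ± 0.84, 0.70 ± 0.65, 0.58 ± 0.44, 0.54 ± 0.44, 0.20 ± 0.32 and 0.047 ± 0.21 in the same order of genes, and edgeR called 0 of 14348 genes (0%), with 380 at an unadjusted p under 0.05, 9 called by DESeq2 and 0 by limma. With 2 sections against 2, an exact two-sided permutation test of a single gene cannot go below p = 0.33.

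Without the V male, the log2 fold change over whole sections was 0.12 for Angptl4 (-0.53 over parenchyma spots) and turned to -0.19 for Txnip, -0.17 for Acer2, -0.30 for Rgcc and -0.25 for Cpt1a, a fit in which V is 1 section assumed to vary like the others. Within each sex, 1 section against 1 and so untested, the genes went opposite ways. V over NV in males was 2.67 (log2) for Angptl4, 2.19 for Rgcc, 1.69 for Acer2, 1.46 for Txnip, 0.49 for Cpt1a and -0.98 for Pdk4. In females it was -0.40, -0.78, -0.41, -0.52, -0.24 and 0.64 in the same order. The same signs were found in parenchyma spots. Sex, the mouse and the tissue caught in the section cannot be told apart here, since each combination is 1 section.

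Around these 6 genes, 9 lists of related genes (149 genes, all present in the tables) were read with the same fits. Between V and NV none of the lists held a called gene over whole sections or parenchyma spots. Their median log2 fold changes over whole sections ran from -0.012 to 0.29, against 0.025 over all genes. The largest differences with no overlap between groups were those of Trim63, a muscle ubiquitin ligase of atrophy (-1.72 ± 1.72, SE), and Zbtb16, a glucocorticoid-induced repressor (1.04 ± 0.46), neither of which passed. Trim63 held 0 UMIs in the V male, 12.8 CPM in V female spots and 23.4 and 22.9 CPM in those of the NV male and female, and cardiac muscle markers summed to 23.2, 7714, 13277 and 14098 CPM in the 4 sections. Arrdc4, the closest relative of Txnip among glucose-driven arrestins, was lower in both V sections (9.68 and 12.97 CPM) than in both NV sections (15.2 and 17.4 CPM), a log2 fold change of -0.53 ± 0.30 that did not pass, while Txnip itself was highest in the V male.

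Along endothelial share the lists divided. The carnitine shuttle and beta-oxidation list, which includes Acaca and Acacb, had 18 tested genes. Of these, 16 were lower in endothelial-rich spots and 0 higher (median log2 fold change -1.27, against 0.013 over all genes). The pyruvate dehydrogenase list holds the complex and its regulators together with Ldha, Ldhb, Mpc1 and Mpc2. In it 11 of 14 genes were lower and 0 higher (-1.10). Of all genes, 10.4% were lower and 3.51% higher. Without the V male the counts were 16 and 13, beside 2760 of all 12583 genes lower. Without any other section they were 1 and 0, beside 157 to 282 of 12485 to 12658 genes lower. Within parenchyma spots they were 4 and 0, with medians of -0.20 and -0.15, beside 276 of all 12370 genes lower. Cpt1a (0.30) had the opposite sign to the muscle-type enzyme Cpt1b (-2.55, adjusted p = 0.000833). Pdk4 (-1.97) shared its direction with Pdk1 (-0.84, adjusted p = 0.0378) and Pdk2 (-1.04, adjusted p = 0.0345) and not with Pdk3 (0.093, adjusted p = 0.757). Pdk1 and Pdk3 were named as relatives of Pdk4 after their values had been seen.

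In the ceramide and sphingosine 1-phosphate list 4 of 18 tested genes were higher and 0 lower in rich spots (median 0.36, against 0.013 over all genes), beside 3.51% of all genes higher. They included S1pr1, the main endothelial receptor of sphingosine 1-phosphate (0.78 ± 0.18, adjusted p = 0.0356), the kinase Sphk1 (0.87 ± 0.24, adjusted p = 0.0474) and Sptlc2, a subunit of the enzyme that starts ceramide synthesis (0.64 ± 0.17, adjusted p = 0.0481). Acer2 (0.87) had the same sign. Without the V male 10 of 18 were higher, without any other section 0, and within parenchyma spots 2 of 18. Of all genes, 2186 of 12583 were higher without the V male, 0 or 1 without another section, and 170 of 12370 within parenchyma spots. In the lipoprotein lipase system 1 of 9 was higher and 3 lower (median -0.82). Lpl, the enzyme that Angptl4 inhibits, was lower in rich spots (-1.63 ± 0.38, adjusted p = 0.0358) along with Vldlr and Lipe. Without the V male 2 of 9 were higher and 7 lower, beside 2186 of all 12583 genes higher and 2760 lower. Without any other section 0 passed, beside 157 to 283 of all genes called.

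Most called genes of the other lists were lower in this contrast, in which 10.4% of all genes were lower. Among PPAR targets and receptors 7 of 19 were lower and 0 higher, including Pparg (-2.003), the master factor of fat cells, the glycerol channel Aqp7 (-2.36) and Ucp3 (-1.92). Without the V male 13 of 19 were lower, beside 2760 of all 12583 genes. Without the V female, NV male or NV female 0, 1 and 3 were lower. Of all genes, 157 of 12485, 194 of 12658 and 282 of 12644 were lower in these 3 fits. For FoxO factors and fasting targets the count was 4 of 18 lower, with Pck1, the gluconeogenic enzyme (-2.36), and Trim63 (-2.66), and for glucose sensing and alpha-arrestins 1 of 15 higher and 3 lower, with the insulin-responsive transporter Slc2a4 (-2.41) and Mlxipl, which encodes ChREBP (-1.94). Hypoxia-inducible factor targets had 4 of 13 lower, with Egln3 (-2.03), and glucocorticoid receptor targets 1 of 12 lower, Mt1 (-1.15), a share no higher than that of all genes. Fat and heart transcripts among these genes moved with the adipocyte and cardiac markers of the same spots, and their part was not tested.

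**Figure D5:**
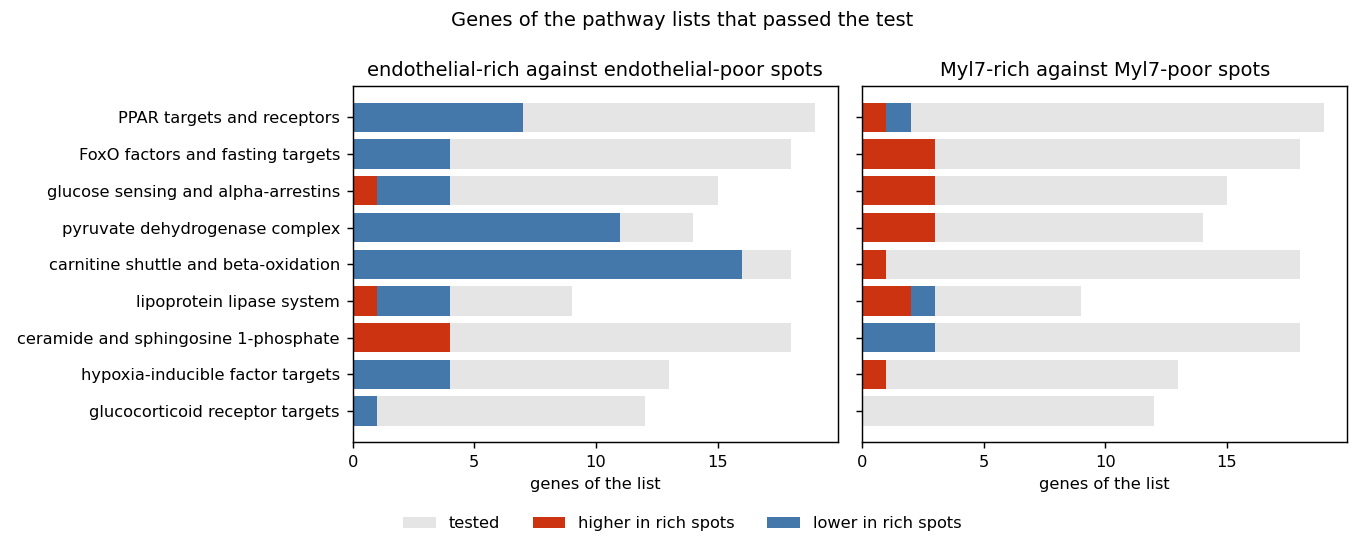
Number of genes of each of the 9 lists that were tested (gray) and that passed the test as higher (red) or lower (blue) in marker-rich spots, for the endothelial (left) and Myl7 (right) contrasts. In the left panel 16 of 18 carnitine and beta-oxidation genes are blue and 4 of 18 ceramide genes red, and in the right panel no list has more than 3 genes in either color.

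Along Myl7 fewer genes of the lists passed, in a contrast with 7.85% of all genes higher and 2.72% lower. Trim63 (3.43 ± 0.22, adjusted p = 4.76e-06) and the related atrophy ligase Fbxo32 (1.41 ± 0.19) were higher in Myl7-rich spots, with 3 of 18 FoxO list genes higher and 0 lower. Of the pyruvate dehydrogenase list 3 of 14 were higher, Pdp1 (0.88), Ldhb (1.48) and Pdk2 (0.88, adjusted p = 0.0381), and of the glucose list 3 of 15, Hk1, Hk2 and Slc2a4. Cpt1b (1.75, adjusted p = 0.0276) was the 1 called gene of the 18 of the carnitine list, a share below that of all genes. Without the V female 16 of these 18 and 13 of 14 genes of the pyruvate dehydrogenase list were higher, and without an NV section 0 of 18. Of all genes, 2030 of 12497 were higher without the V female, 389 of 13957 without the NV male and 712 of 13922 without the NV female. Lpl (1.35 ± 0.25) and Vldlr (0.97 ± 0.13) were higher and Lipg (-0.56 ± 0.15) lower among 9 genes of the lipase system. Sptlc2, S1pr3 and S1pr1 were lower among 18 ceramide genes, in the direction of Acer2 (-0.55). PPAR targets had 1 of 19 higher (Ppargc1a, 1.58) and 1 lower (Acot1, -0.59), hypoxia-inducible factor targets 1 of 13 higher (Egln1, 0.65), and glucocorticoid receptor targets 0 of 12. The counts of 1 higher gene in these lists lie near the share of all genes.

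Correlations with other genes across spots differed between sections. Compared were 8508 genes with a UMI in at least 10% of spots of every section. Genes rare in the V male, such as Myl7 (1.53% of its spots), could thus not be listed. The highest mean Spearman rho over the 4 sections was 0.28 for Acer2, with the endothelial genes Ramp2, Calcrl and Epas1. For Epas1 it was 0.044 in the V male, 0.27 in the V female, 0.33 in the NV male and 0.45 in the NV female. For Pdk4 the highest mean was 0.24, with the mitochondrial genes Cycs and Uqcrfs1. Rgcc was nearest to Hopx, Ager and Prdx6 (0.24), Txnip to H2-K1, H2-D1 and Epas1 (0.18 to 0.20), Angptl4 to Hacd2, Acp5 and Slc27a1 (0.18) and Cpt1a to Cystm1, Tmbim1 and Scnn1a (0.15). Spots of a section share a library and differ in depth and tissue, and these values are a description.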

How the data were processed

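Visium sections of 2 V and 2 NV mice were analyzed, grouped by the exposure in the labels. The authors aligned reads with SpaceRanger to the 10x mm10 mouse reference and deposited, for each spot under tissue, the UMI count of every gene without normalization; their Seurat 4.0.3 normalization is not part of these counts. All deposited spots were used, and spots are not replicates. Counts were summed per section and printed as CPM of all UMIs. A spot was parenchyma where its share of UMIs from Hopx, Tmem100, Calcrl, Cldn18, Sftpb and Sftpc was at least 50% of the share over all spots. Rich and poor spots were the highest and lowest of 3 equal parts of each section by Cldn5 and Cdh5 or by Myl7, and the ranking markers were left out of the fit.

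The quasi-likelihood test of edgeR 4.0.16 (R 4.3.3) was run on the sums after filterByExpr and TMM scaling, without covariates for V against NV and with the section as a block for spots. A call needed an adjusted p (Benjamini-Hochberg, all tested genes) below 0.05 with a log2 change larger than 0.25 either way. SE is the fold change over the square root of F. Alternatives were DESeq2 1.42.0, limma 3.58.1 (log2 of the mean level plus 1), other scalings, filters, markers, spot parts, thinning and leaving out each section. The fits were tested on simulated data. For V against NV, edgeR recovered 34% of genes given a log2 change of 2 over whole sections and 76.5% over parenchyma spots. The members and gene lists were chosen with earlier results of these data known. Genes named beside the 6 were, per list and contrast, up to 3 called genes with the smallest adjusted p or, for V against NV, up to 2 with no overlap and the largest difference, and the 3 genes nearest by mean Spearman rho (numpy 2.4.6, scipy 1.17.1). Some of these are given only as counts, and 1 is not reported here. Symbols of 31424 of 32285 genes (97.3%) matched GENCODE vM21. Replicate number 1 is the male and 2 the female of each group, which is a shared sex and no shared litter or day, so the sections were not paired. No source states separate litters, and p-values measure the spread between these sections.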

Additional observations from a re-analysis of the deposited data

Results flagged for a closer look

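For each of the 6 genes the V section lay on opposite sides of the NV section of its sex in males and in females, with 1 section per combination, so that the difference between the sexes was not tested. As a difference of log2 ratios (V over NV in males minus V over NV in females), whole sections gave 3.07 for Angptl4, 2.97 for Rgcc, 2.10 for Acer2, 1.98 for Txnip, 0.73 for Cpt1a and -1.62 for Pdk4. In parenchyma spots the differences were 3.66 for Angptl4, 2.91 for Rgcc, 1.89 for Acer2, 1.86 for Txnip, 0.55 for Cpt1a and -0.60 for Pdk4. The V male section held few of the heart, airway and fat transcripts of the others, and their part in these differences was not tested.

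Pdk4 was higher in Myl7-rich spots of both NV sections and lower in those of the V female, the 1 V section used, with a V minus NV difference of -1.81 (log2) that was not tested. It rests on the highest and lowest parts: the middle part held 60.8 CPM in the V female, and across its single spots the Spearman rho of Pdk4 with Myl7 was 0.20 (0.088 with thinned spots), beside 0.18 and 0.26 in the NV male and NV female (0.19 and 0.16). In the V female, adipocyte markers summed to 7468 CPM in Myl7-poor spots, against 851 and 4484 CPM in those of the NV male and NV female, and to 6323, 1065 and 6554 CPM in Myl7-rich spots of the same sections. The part of fat in the difference was not tested.

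Among 12 sets of 4 sections examined for a section far from the rest, of which chance marks about 1 in 20, Cpt1a had 1: its endothelial-rich minus endothelial-poor difference was 0.033 (log2) in the V male, far from the 0.76 to 0.81 of the other sections. The differences of Cldn5 and Cdh5 themselves were 1.30 and 1.34 in the V male, against 2.35 to 2.62 and 2.04 to 2.24 elsewhere. Their part was not tested.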

How the results depend on the processing

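Between V and NV, 0 genes were called over whole sections and over parenchyma spots, against 8 and 9 by DESeq2, 5 in parenchyma without a filter, and 0 to 811 and 0 to 1483 when a section was left out; a lone section is then assumed to vary like the others. In endothelial-rich against endothelial-poor spots 1747 genes were called, against 3290 without a filter, 594 with thinned spots, 446 in parenchyma only, 0 without the section block (2000 at an unadjusted p under 0.05, edgeR) and 3343 with scaling to total UMIs (2393 higher and 950 lower, against 440 and 1307), an alternative chosen after seeing the data; leaving out a section gave 157 to 4946. For Myl7 1323 were called, against 772 by DESeq2, 2186 without a filter, 741 with 2 equal parts of spots instead of 3, 248 in parenchyma only, 498 without the section block and 2394 with total UMIs (828 higher and 1566 lower, against 983 and 340), and leaving out a section gave 392 to 3401. The cause was not tested.

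The V against NV value of Pdk4 (0.22 whole, 0.20 parenchyma) turned to -0.28 and -0.12 with limma on mean levels, to -0.18 with the replicate block over whole sections, and ranged with a section left out from -1.38 to 0.94 and -0.29 to 0.58; over whole sections it was -0.024 without the NV male. Leaving out a section gave ranges of 0.12 to 1.91 (whole) and -0.53 to 1.99 (parenchyma) for Angptl4, -0.19 to 0.999 and -0.16 to 1.02 for Txnip, -0.17 to 1.37 and -0.11 to 1.06 for Acer2, -0.30 to 1.48 and -0.40 to 1.35 for Rgcc, and -0.25 to 0.43 and -0.23 to 0.29 for Cpt1a, with the lowest value of each without the V male. Angptl4 in the Myl7 contrast (-0.26) turned to 0.022 with thinned spots and 0.13 in parenchyma. The replicate block called 0 genes in both V against NV fits (413 and 459 at an unadjusted p under 0.05); numbers mark sex only, and same-numbered sections deviated from their group means with a correlation of 0.38 over whole sections and 0.077 over parenchyma. Depth limits Pdk4 most, with 204 UMIs in the V male.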
